A study of Mus musculus with 6 samples.

Results

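The proteasome genes of activated mouse T cells were taken as every protein-coding gene of the gene table whose symbol starts with Psma, Psmb, Psmc, Psmd, Psme, Psmf or Psmg. There were 50 such genes among 52550, and 49 of them had counts and were tested together with the other genes. Psmb11, the thymus-restricted β5 subunit, had 0 counts in all 6 samples and was not tested. Psmc3ip is a meiotic recombination factor that carries the name of a subunit without being one, and it was kept because the rule takes it.

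CD3+ T cells were isolated by magnetic separation from the spleens of wild-type C57BL mice and activated with antibodies to CD3 and CD28, and their polyadenylated RNA was sequenced at 24 h. The 3 TCR alone samples received the activation only. The 3 TCR+DMGV samples also received a compound at 100 ng/ml, which their labels name DMGV (dimethylguanidino valeric acid). The study's text instead names LNY1 at 100 ng/ml for this experiment, which is not another name for DMGV. LNY1 was purified from fibroblast medium, and the study equates it with asymmetric and symmetric dimethylarginine. The enzyme AGXT2 converts these to DMGV. Which compound the samples received cannot be told from the labels and the text. The mice were of both sexes and 6 to 8 weeks old. All samples were activated, so no value here shows what activation itself did to the proteasome genes. The labels call the samples biological replicates.

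The proteasome degrades proteins that carry ubiquitin. Its 20S core is a barrel of α rings around β rings, and the β1, β2 and β5 subunits cut the peptide chain. The 19S cap, made of a base with ATPases and a lid, receives, unfolds and feeds in the substrate. Lymphocytes and cells exposed to interferon-γ can replace the constitutive catalytic subunits Psmb6 (β1), Psmb7 (β2) and Psmb5 (β5) by the immune subunits Psmb9 (β1i), Psmb10 (β2i) and Psmb8 (β5i), which favours peptides that MHC class I molecules present. The activators PA28 and PA200 can bind the core in place of the 19S cap. Nfe2l1 is known to raise the transcription of proteasome subunits through antioxidant response elements when degradation falls behind, and Irf1 and Nlrc5 act on the immune subunits.

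The sequences before the start of 4 catalytic subunit genes are given because the constitutive and immune subunits are known to answer to different factors. Each is the 250 bases before the start that RefSeq gives (GRCm38.p6), 5′ to 3′ along the gene's strand. Capitals mark an antioxidant response element, TGACNNNGC or TGAGNNNGC, in Psmb5 and Psmb6. They mark a gamma-activated site, TTCNNNGAA, in Psmb8. In Psmb9, they mark the 225 bases between its start and that of Tap1, the peptide transporter gene that RefSeq starts in the other direction. This stretch is thus before both RefSeq starts. GENCODE M21, which gives the gene positions used elsewhere here, starts Psmb8 (34197721) and Psmb9 (34187764) further upstream. The sequences printed for Psmb8 and Psmb9 therefore lie within these genes as M21 gives them. That of Psmb5 does so in part, as M21 starts it at 54618022.
Psmb5, chr14:54617996-54618245, reverse strand: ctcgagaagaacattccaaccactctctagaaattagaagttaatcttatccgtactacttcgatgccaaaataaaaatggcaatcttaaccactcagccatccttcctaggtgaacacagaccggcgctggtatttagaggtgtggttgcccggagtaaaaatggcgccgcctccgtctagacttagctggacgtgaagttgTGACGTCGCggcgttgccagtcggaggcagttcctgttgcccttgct
Psmb6, chr11:70525107-70525356, forward strand: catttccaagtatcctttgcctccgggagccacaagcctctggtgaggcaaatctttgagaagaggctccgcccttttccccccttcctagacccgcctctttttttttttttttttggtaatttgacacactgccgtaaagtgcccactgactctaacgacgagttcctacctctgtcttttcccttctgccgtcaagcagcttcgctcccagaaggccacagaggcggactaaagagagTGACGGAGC
Psmb8, chr17:34197945-34198194, forward strand: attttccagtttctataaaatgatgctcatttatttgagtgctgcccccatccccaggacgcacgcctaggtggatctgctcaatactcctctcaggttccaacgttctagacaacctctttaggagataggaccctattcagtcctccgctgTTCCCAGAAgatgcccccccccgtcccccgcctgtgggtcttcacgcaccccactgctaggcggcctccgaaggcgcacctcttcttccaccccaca
Psmb9, chr17:34187331-34187580, reverse strand: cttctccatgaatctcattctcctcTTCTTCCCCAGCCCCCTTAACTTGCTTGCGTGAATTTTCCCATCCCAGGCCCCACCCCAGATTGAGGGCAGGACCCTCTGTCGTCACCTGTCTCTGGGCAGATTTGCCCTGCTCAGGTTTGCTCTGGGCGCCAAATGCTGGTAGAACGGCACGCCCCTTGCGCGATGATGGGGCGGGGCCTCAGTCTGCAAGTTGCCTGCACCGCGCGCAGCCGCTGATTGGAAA
Of the 42 members with such a sequence, 13 held an antioxidant response element on either strand, against 26.8% of all 16517 genes with a sequence. The element began 47 bases before the start of Psmb5 and 9 bases before that of Psmb6, and the windows of Psmb8, Psmb9 and Psmb10 held none. A gamma-activated site was in 2 members, Psmb8 and Psmg1, against 7.72% of genes. An interferon-stimulated response element was in 3 members, Psmb3, Psmd4 and Psmd9, against 3.55% of genes. Psmb7 had no sequence in the table used.

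The counts of the samples summed to 37758725 to 43718867. The first principal component, 32.2% of the variance, set TCR alone replicate 3 (42.1) and TCR+DMGV replicate 1 (42.9) apart from the other 4 samples (-34.9 to -10.5), so the main results are also given without them. All 15 T cell markers were above 1 FPKM (fragments per length of transcript and per depth of the library), and their summed level was 2311 to 2683 in TCR alone and 2523 to 2770 in TCR+DMGV. Of the 10 B cell markers, 2 were above 1 FPKM, and the sums were 116 to 130 and 113 to 121 FPKM, mostly from Ighm. The 12 myeloid markers summed to 19.7 to 28.1 and 23.8 to 28.1 FPKM, with Cd14, Ms4a7 and Clec9a listed at 0. Of these markers, 3 were above 1 FPKM, and Cst3 was the highest (21.4 FPKM). The 6 NK cell markers summed to 11.8 to 14.3 and 13.3 to 16.7 FPKM, but only 1 was above 1 FPKM, Eomes (13.2 FPKM). Of 8 neutrophil markers, 7 were listed at 0. The 8 erythroid markers summed to 4.7 to 5.83 FPKM in TCR alone and to 2.28 to 4.24 FPKM in TCR+DMGV, without overlap and with Slc4a1 listed at 0, and their part in the results was not tested. B cells and myeloid cells also express immune subunits, and their part in the levels of Psmb8, Psmb9 and Psmb10 was not tested. In such bulk samples, fewer cells of a type and less RNA per cell cannot be told apart.

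The proteasome genes were among the abundant messages of these cells. Their median level was 70.9 FPKM, against 4.23 FPKM over all genes tested, and 47 of the 49 lay above the latter value. Between TCR alone and TCR+DMGV, no member passed the test. By edgeR's quasi-likelihood test none of the 49 reached the adjusted threshold of 0.05, and among all 14786 genes 2 passed (0.0135%). At an unadjusted p under 0.05 there was again no member, against 3.19% of all genes. DESeq2 called 0 members at an adjusted p of 0.05 (0.072% of all genes) and 0 at an unadjusted p under 0.05 (2.22% of all genes). The smallest p was that of Psma6 (0.0581, adjusted p = 0.999 in edgeR's test). The 95% interval of the log2 fold change lay within -0.5 and 0.5 for 44 of the 49 genes, the exceptions being Psma8, Psmc6, Psmd10, Psme2b and Psme4. Where a test over single values is given, it is a two-sided exact permutation test, which cannot go below 0.1 with 3 samples against 3.

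By the deposited FPKM, the constitutive catalytic subunits stood above their immune counterparts at every position and in every sample. In TCR alone replicate 1, Psmb5 and Psmb6 had 4418 and 4425 counts but 120.0 and 55.9 FPKM. Their most counted transcripts had 899 and 798 bases, so the FPKM did not follow counts and length alone. By counts, Psmb8 (8028 to 11802, 1628 bases) stood above Psmb5 (4418 to 6380) in every sample. Counts over these lengths did not put Psmb8 below Psmb5 in every sample, so the order at β5 rests on the deposited FPKM. Psmb9 and Psmb10 stood below Psmb6 and Psmb7 by counts too. Psmb5, whose product cuts after hydrophobic residues, was at 120.0, 139 and 149 FPKM in TCR alone replicates 1 to 3 and at 149, 137 and 150.0 FPKM in TCR+DMGV replicates 1 to 3. Its immune counterpart Psmb8 was at 69.3, 78.7 and 94.7 FPKM in TCR alone and at 87.9, 81.8 and 82.7 FPKM in TCR+DMGV. TCR alone replicate 1 was the lowest sample for both, and the groups overlapped.

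Psmb6, the β1 subunit that cuts after acidic residues, was at 55.9, 59.4 and 65.8 FPKM in TCR alone and at 67.2, 58.2 and 65.6 FPKM in TCR+DMGV. Psmb9, which takes its place in the immunoproteasome, was at 16.1, 21.5 and 20 FPKM in TCR alone and at 19.6, 16.3 and 17.1 FPKM in TCR+DMGV. Psmb9 was the least abundant of the catalytic subunits by its mean over the 6 samples (18.4 FPKM).

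Psmb7, the β2 subunit that cuts after basic residues, was at 41.0, 48.0 and 47.8 FPKM in TCR alone and at 47.7, 44.5 and 48.2 FPKM in TCR+DMGV. Psmb10, its immune counterpart, was at 20, 19.6 and 26.5 FPKM in TCR alone and at 21.7, 19.6 and 22.9 FPKM in TCR+DMGV. The samples of the groups were mixed for both genes. By the mean FPKM over 6 samples the order was Psmb5 (141 FPKM), Psmb8 (82.5), Psmb6 (62.0), Psmb7 (46.2), Psmb10 (21.7) and Psmb9 (18.4). Only the last pair had overlapping sample values.

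**Figure D1:**
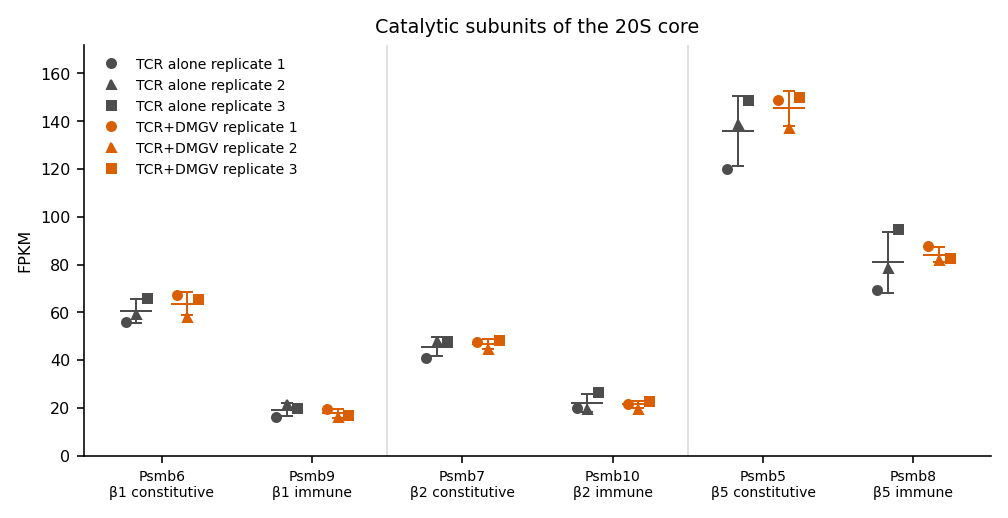
FPKM of the constitutive and immune catalytic subunits in each sample. Points are samples (circle, triangle and square for replicates 1, 2 and 3), and bars give the mean and SD of 3 samples. The constitutive subunit has the higher FPKM at each position, and the groups overlap for all 6 genes.

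The log2 fold changes of the catalytic subunits were small beside their errors. They were 0.11 (standard error 0.10, 95% interval -0.11 to 0.34) for Psmb5, 0.09 (0.09, -0.12 to 0.30) for Psmb6 and 0.05 (0.09, -0.16 to 0.26) for Psmb7. The immune subunits had 0.07 (0.11, -0.19 to 0.33) for Psmb8, -0.11 (0.13, -0.41 to 0.20) for Psmb9 and -0.02 (0.13, -0.33 to 0.29) for Psmb10. The p-values ran from 0.28 for Psmb5 to 0.886 for Psmb10, and the adjusted p was 0.999 for each (edgeR). Psmb7 and Psmb8 turned below 0 without TCR alone replicate 1 (-0.0386 and -0.0463), and Psmb10 turned above 0 without TCR alone replicate 3 (0.123), without TCR+DMGV replicate 2 (0.035) and without the pair that stands apart (0.128).

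The balance of immune against constitutive subunits was taken per sample as the mean log2 FPKM of Psmb8, Psmb9 and Psmb10 minus that of Psmb5, Psmb6 and Psmb7. It was -1.208, -1.194 and -1.074 in TCR alone replicates 1 to 3 and -1.224, -1.255 and -1.289 in TCR+DMGV replicates 1 to 3. All TCR+DMGV samples were thus lower, but the nearest samples of the groups, -1.208 and -1.224, were closer to each other than the samples within either group were spread. The means were -1.16 ± 0.0735 and -1.26 ± 0.0323 (SD, n = 3 each), a difference of -0.0971 on the log2 scale. As the score was formed over members chosen with earlier results known, it was given no p. The groups overlapped when the β1 pair (-0.0508) or the β2 pair (-0.112) was left out. The difference was -0.0548 without TCR alone replicate 3 and -0.0708 without the pair that stands apart.

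No single position had its groups apart. The immune subunit held 22.3%, 26.6% and 23.3% of the β1 FPKM in TCR alone and 22.6%, 21.9% and 20.7% in TCR+DMGV. At β2 it held 32.8%, 28.9% and 35.6% in TCR alone and 31.3%, 30.6% and 32.3% in TCR+DMGV. At β5 it held 36.6%, 36.2% and 38.9% in TCR alone and 37.1%, 37.4% and 35.6% in TCR+DMGV. By FPKM, the share of the immune subunit was lowest at β1 and highest at β5 in all samples, but none of these shares separated the groups. This order of the positions rests on the deposited FPKM. By counts, Psmb9 (2490 to 3674) was above Psmb10 (1444 to 2052) in every sample, with most counted transcripts of 1352 and 1311 bases. Psmb6 (4425 to 6168) was below Psmb7 (5931 to 8003) in every sample, with 798 and 1160 bases. The immune share of counts was thus lower at β2 than at β1 in every sample. Over the 3 positions, the immune subunits held 33.5% ± 1.31 of the catalytic FPKM in TCR alone and 32.5% ± 0.633 in TCR+DMGV (SD, n = 3 each).

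**Figure D2:**
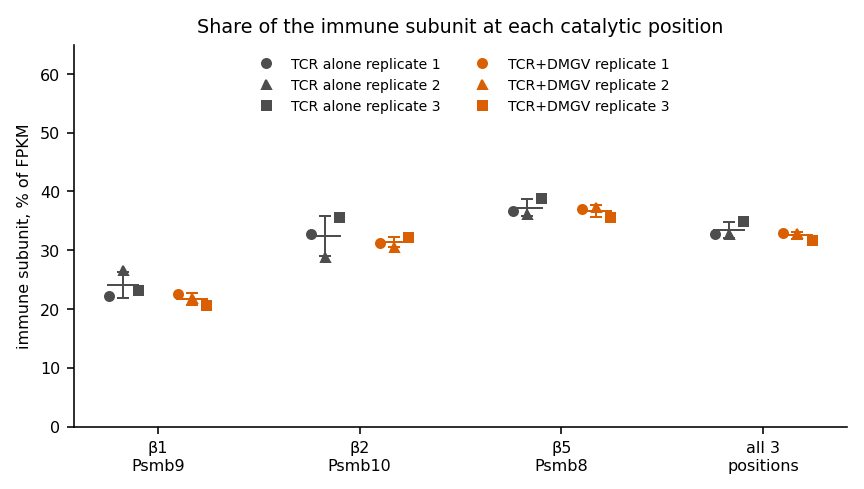
Percent of the FPKM at each catalytic position that came from the immune subunit, and over the 3 positions together. Points are samples, and bars give the mean and SD of 3 samples. By the deposited FPKM the share rises from β1 to β5, whereas by counts it is lower at β2 than at β1. The samples of TCR alone and TCR+DMGV overlap at each position.

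Reads of some of these genes can be shared with a neighbour, because the counting is not stated to use strand. In GENCODE M21, Psmb9 overlaps Tap1 over 212 bases on the other strand, and Tap1 had 7647 to 9364 counts per sample. Tap1 itself was at 211 ± 6.84 CPM (counts put on one library size by TMM) in TCR alone and at 197 ± 17.3 CPM in TCR+DMGV (SD, n = 3 each). Psmb7 overlaps Nek6 over 6571 bases and Psmb8 overlaps Gm20496, which had at most 194 counts. The 4 annotated pseudogenes of β subunits had at most 5 counts in a sample.

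None of the remaining 20S core genes passed the test. Between samples, levels are given from here on as CPM. Where a gene is called the most or least abundant of a role, the rank is by the deposited FPKM and can differ by CPM. All 7 α ring genes, whose products form the gate of the core, had log2 fold changes above 0, from 0.03 for Psma3 to 0.20 for Psma6. Psma6 (chromosome 12, 55384222 to 55418454) was at 184, 214 and 207 CPM in TCR alone and at 231, 217 and 246 CPM in TCR+DMGV. Its groups did not overlap, with a gap of 214 to 217 CPM between the nearest samples (log2 fold change 0.20, standard error 0.09, 95% interval -0.01 to 0.40, exact permutation p = 0.1). By FPKM, Psma6 was also the highest of these α subunits at 156 FPKM and Psma3 the lowest at 50.5 FPKM. By CPM, Psma1, Psma2, Psma4 and Psma7 were above Psma6 in every sample, Psma7 at 267 to 337 CPM.

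The 4 non-catalytic β subunits had log2 fold changes of 0.04 to 0.17, and the groups overlapped for each. Psmb1 was the most abundant of them (195 FPKM) and Psmb3 the least (97.8 FPKM). Psmb2 had the smallest p of them (0.178, adjusted p = 0.999 in edgeR's test), at 188, 175 and 209 CPM in TCR alone and at 205, 205 and 215 CPM in TCR+DMGV. Psma8, the α subunit of germ cells, was counted 18, 6 and 0 times in TCR alone, against 24, 22 and 16 times in TCR+DMGV, too few for its log2 fold change of 1.23 (standard error 0.99) to be told from 0.

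The assembly chaperones of the core, Psmg1 to Psmg4, help to build the α ring. Psmg3 was the least abundant of them (10.2 FPKM) and had the smallest p (0.0976, adjusted p = 0.999 in edgeR's test), with 27.7, 30.8 and 34.4 CPM in TCR alone and 33.8, 37.4 and 36.1 CPM in TCR+DMGV. TCR+DMGV replicate 1 lay below the highest TCR alone sample. Psmg2 was the most abundant (60.4 FPKM), at a log2 fold change of 0.03 (standard error 0.11).

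In the 19S cap, none of the ATPase, base or lid genes passed the test either. Psmc2, an ATPase (chromosome 5, 21785283 to 21803787), was at 188, 218 and 222 CPM in TCR alone and at 230.0, 227 and 230.0 CPM in TCR+DMGV. It was with Psma6 one of 2 members whose TCR+DMGV samples were all above those of TCR alone, 4.08% of the members against 4.92% of all genes. No member had them all below, against 3.94% of all genes. The log2 fold change of Psmc2 was 0.13 (standard error 0.08, exact permutation p = 0.1), and Psmc5, the most abundant ATPase at 129 FPKM, had the same value with a standard error of 0.10.

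Psmc6, another ATPase, differed far more between samples of one group than between groups. It was at 224, 281 and 152 CPM in TCR alone and at 156, 247 and 253 CPM in TCR+DMGV. TCR alone replicate 3 and TCR+DMGV replicate 1, the samples that stood apart on the first component, were the lowest of all, and the log2 fold change was 0.0 with a standard error of 0.26. Psme4, the large activator known as PA200, was also lowest in these 2 samples, at 153, 158 and 76.3 CPM in TCR alone and at 87.2, 141 and 133 CPM in TCR+DMGV. Without them the log2 fold changes were -0.01 (standard error 0.12) for Psmc6 and -0.18 (standard error 0.08, adjusted p = 0.773 in edgeR's test) for Psme4, against -0.10 (0.30) for Psme4 with all samples. These 2 samples were the lowest for 6 members (Psmc6, Psmd14, Psmd3, Psmd5, Psme3 and Psme4), 12.2% against 17.2% of all genes. They were the highest for 8 members, 16.3% against 9.29% of all genes, Psmb8, Psmc1 and Psmc5 among them. The GC content of Psmc6 was 37.0%, against a median of 50.2% over all genes, and its part in the order of the samples was not tested.

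Among the other base genes, Psmd2 (Rpn1), a receptor of ubiquitin-like domains, was the most abundant at 111 FPKM and Psmd4 (Rpn10), a ubiquitin receptor, the least at 45.3 FPKM. Psmd4 was at 121, 137 and 151 CPM in TCR alone and at 140.0, 160.0 and 150.0 CPM in TCR+DMGV, with 0.14 as the log2 fold change (standard error 0.10). All 8 lid genes had values above 0, from 0.02 for Psmd7, the most abundant (132 FPKM), to 0.22 for Psmd6. Psmd6 was at 127, 165 and 148 CPM in TCR alone and at 177, 157 and 179 CPM in TCR+DMGV (standard error 0.11, adjusted p = 0.999 in edgeR's test), and its groups overlapped. Psmd11 was the least abundant lid gene at 21.7 FPKM, with a log2 fold change of 0.06.

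Chaperones of the 19S base were less abundant than the subunits they assemble. Psmd9 was at 4.55 FPKM and Psmd10 (gankyrin) at 19.1 FPKM. Psmd10 was at 23.7, 31.5 and 34.5 CPM in TCR alone and at 31.4, 34.3 and 34.5 CPM in TCR+DMGV, so that TCR alone replicate 1 alone was lower than the rest.

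The activators that bind the core in place of the cap ran from 2.47 to 197 FPKM. Psme3 (PA28γ, the nuclear activator) was the most abundant member of all at 197 FPKM and one of the most even, at 652, 665 and 622 CPM in TCR alone and at 642, 672 and 671 CPM in TCR+DMGV (log2 fold change 0.03, standard error 0.06). Psme1 and Psme2, the interferon-inducible PA28α and PA28β, were at 101 and 88.4 FPKM. Psme1 was at 220.0, 240.0 and 261 CPM in TCR alone and at 278, 236 and 267 CPM in TCR+DMGV.

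Psme2 was at 143, 180.0 and 178 CPM in TCR alone and at 190.0, 155 and 207 CPM in TCR+DMGV. The groups overlapped for both PA28 genes, with log2 fold changes of 0.11 (standard error 0.10) and 0.14 (0.14). Psmf1, which inhibits the core (PI31), was at 7.86 FPKM and had a log2 fold change of 0.12 (standard error 0.11). Psme2b, a copy of Psme2 on chromosome 11 that lies within Gm12185, was at 2.47 FPKM, counted 86, 85 and 99 times in TCR alone, against 158, 91 and 62 times in TCR+DMGV, and reads of these genes may have been split between them.

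**Figure D3:**
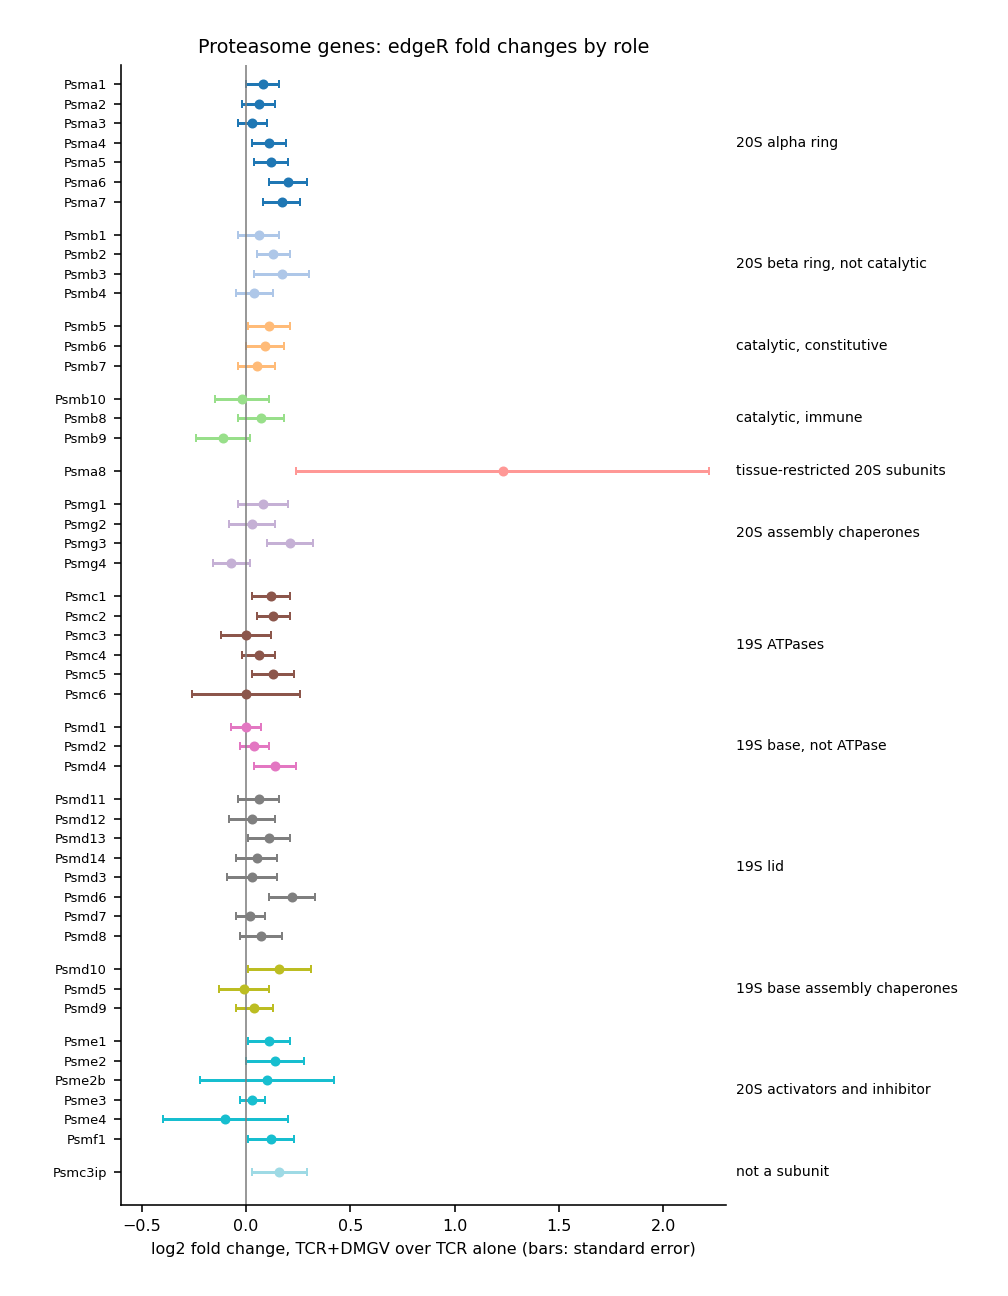
Log2 fold change of TCR+DMGV over TCR alone for the 49 proteasome genes tested, from edgeR's quasi-likelihood fit, with standard errors and grouped by role. Most values lie between 0 and 0.22, none passed the threshold, and Psma8, with at most 24 counts in a sample, has the widest error.

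Over all roles, 42 of the 49 log2 fold changes were above 0 (85.7% of the members, 50.6% of all genes), with a median of 0.0747, against 0.00243 over all genes. TCR alone replicate 1 was the lowest of the 6 samples for 34 members, 69.4% against 21.8% of all genes. Taken as deviations from the mean of the 6 samples, the members had a median of -0.161 in TCR alone replicate 1, against 0.0162 for all genes in that sample, and medians of 0.00337 and 0.05 in TCR alone replicates 2 and 3. The medians in TCR+DMGV were 0.0433, 0.0144 and 0.0815. Without TCR alone replicate 1, 28 members were above 0 and the median was 0.0188. Without TCR alone replicate 3 it was 0.14 and without the pair that stands apart 0.125, and no member passed the adjusted threshold in either. At an unadjusted p under 0.05 there were then 7 members (14.3%, against 7.3% of all genes) and 4 members (8.16%, against 6.53% of all genes).

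That sample's low values ran through the roles. In it the median deviation was -0.163 in the α ring, where it was the lowest sample for all 7 genes, -0.218 among non-catalytic β subunits, -0.184 among constitutive and -0.202 among immune catalytic subunits and -0.18 among the ATPases. The lid was less affected at -0.0846, with 3 of 8 genes lowest there. Among the activators and the inhibitor it was -0.0914, with 3 of 6 genes lowest there. TCR alone replicate 1 also had the fewest counts in all (37758725), and the part of depth was not tested.

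**Figure D4:**
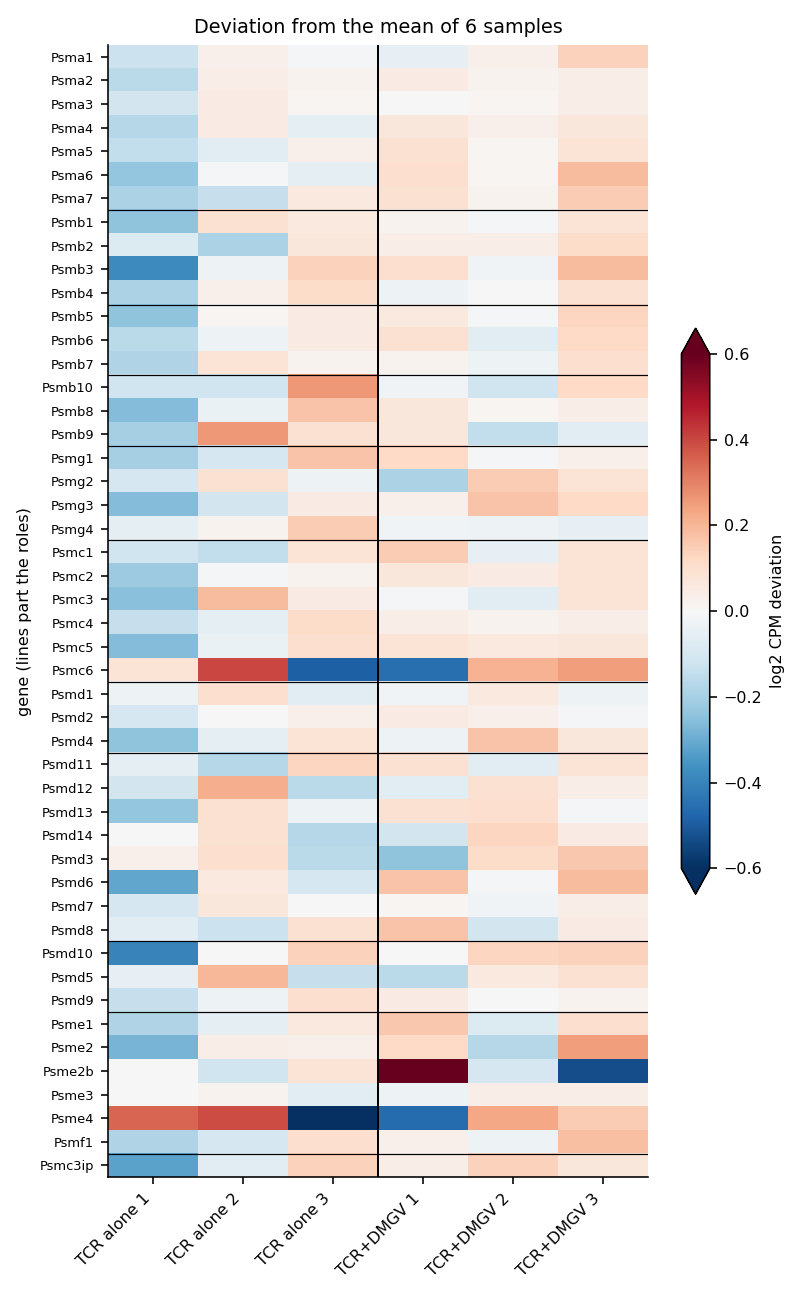
Deviation of each sample's log2 CPM from the mean of the 6 samples for 48 proteasome genes (Psma8 left out for its low counts), one row a gene and one column a sample. The first column, TCR alone replicate 1, is below the mean for most genes, while Psmc6 and Psme4 are low in TCR alone replicate 3 and TCR+DMGV replicate 1. Values beyond 0.6 in size take the end colour.

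The transcripts that make up a member's counts were compared next. Of 41 members with more than 1 transcript and at least 100 counts in every sample, 25 had a leading transcript with over 90% of the counts and 1, Psmf1, had one with under 50%. The leading transcript's share did not overlap between groups for 4 members (Psmc1, Psmd14, Psmd2 and Psme4), 9.76% against 8.95% of the 8365 genes of this kind. In Psmc1, Psmd14 and Psme4 the shares were all above 97%, so the groups differed there by less than 1 percentage point.

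Psmd2 was different. Psmd2-201, which encodes the full protein, held 45.2%, 43.2% and 43.8% of the gene's transcript counts in TCR alone, against 87.2%, 99.6% and 79.4% in TCR+DMGV. Psmd2-206, annotated as a target of nonsense-mediated decay, held 54.4%, 56.5% and 55.9% in TCR alone and 12.3%, 0.0% and 20.1% in TCR+DMGV. The 3 samples of TCR alone lay within 2 percentage points of each other, and every TCR+DMGV sample was far above them for Psmd2-201.

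Psmd2-206 was counted 9682, 11615 and 11891 times in TCR alone, against 2840, 0 and 3973 times in TCR+DMGV, while the gene's total was nearly even at 468, 504 and 514 CPM in TCR alone and 520.0, 514 and 498 CPM in TCR+DMGV. The mean share of Psmd2-201 was 44.1% ± 1.03 in TCR alone and 88.7% ± 10.2 in TCR+DMGV (SD, n = 3 each). Groups that did not overlap and means at least 40 percentage points apart were found for 1 of the 41 members, this one, and for 0.406% of all genes of this kind. The shares computed from the deposited transcript FPKM were 45.2%, 43.2% and 43.8% against 86.2%, 98.5% and 78.8%. Psmd2 was singled out among the transcripts after its values were seen, so its share was given no test.

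Both transcripts of Psmd2 run along chromosome 16 (GRCm38) to 20663414 on the forward strand and share 2909 exonic bases, 98.2% of Psmd2-201 and 96.9% of Psmd2-206. They differ at the first exon, which starts 52 bases earlier in Psmd2-201, and at the second, which starts at 20652244 in Psmd2-201 and 92 bases earlier, at 20652152, in Psmd2-206. The added stretch carries a stop codon in frame. It is printed from its first base to that codon, which is in capitals, since its stop codon ends the reading frame of Psmd2-206 early.
Psmd2-206, second exon, chr16:20652152-20652199, forward strand: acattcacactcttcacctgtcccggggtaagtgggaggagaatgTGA
StringTie shares reads between transcripts by estimation, and how many reads fell on these bases is not in the count tables.

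In other members the shares jumped in single samples. Psmg4-202 held 84.0%, 81.9% and 79.6% in TCR alone but 17.0%, 85.4% and 18.4% in TCR+DMGV, with Psmg4-201 taking the rest. All 474 exonic bases of Psmg4-201 lie within Psmg4-202. Psmd8-202 held 4.17% in TCR+DMGV replicate 1 and 55.4% to 93.1% elsewhere, and Psmc3-202 held 23.6% in TCR alone replicate 2 and 53.4% to 59.1% elsewhere. A leading share that varied by at least 40 percentage points over the 6 samples was found for 5 of the 41 members (Psmd12, Psmd2, Psmd8, Psmf1 and Psmg4) and for 22.2% of all genes of this kind. The catalytic subunits were steady, with leading shares of 83.3% to 90.2% for Psmb10, 86.5% to 90.0% for Psmb9 and 93.7% to 96.3% for Psmb8.

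**Figure D5:**
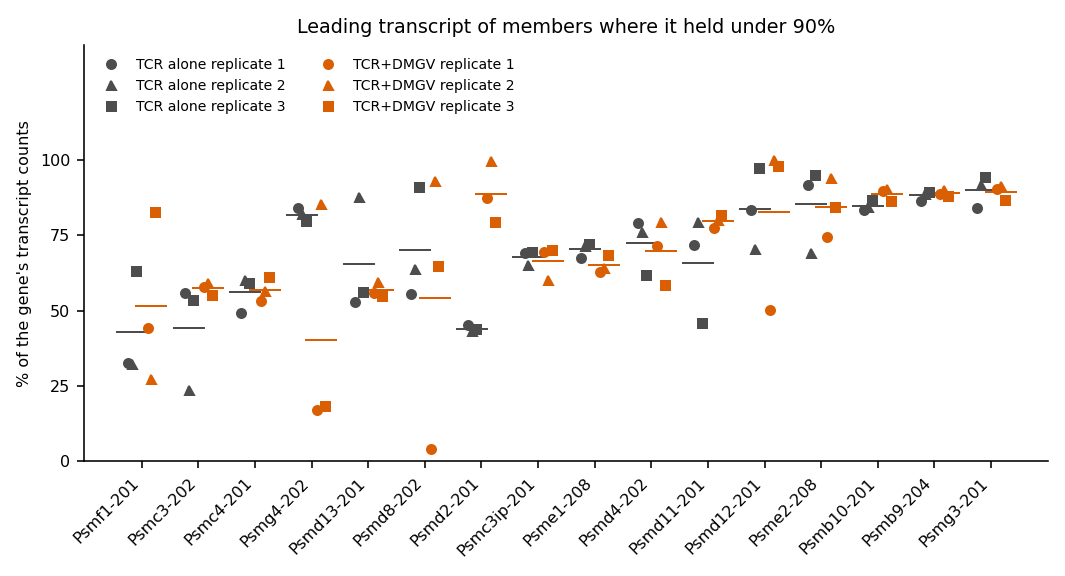
Percent of each member's transcript counts held by its leading transcript, for the 16 members in which that was under 90% on average. Points are samples and dashes the mean of 3. In Psmd2-201 the TCR alone samples sit between 43.2% and 45.2% and the TCR+DMGV samples between 79.4% and 99.6%, whereas the other 15 overlap.

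The pathway around the proteasome was read from 5 lists of genes outside the rule, and no gene of them passed the adjusted threshold in either direction. Of 21 partner genes tested, from 25 written (receptors, deubiquitinases, assembly factors), 10 were above and 11 below 0 in log2 fold change, with a median of -0.0211. Akirin2, which carries proteasomes into the nucleus, was at 33.6, 35.1 and 30.6 CPM in TCR alone and at 28.4, 25.2 and 29.2 CPM in TCR+DMGV, all lower (log2 fold change -0.26, standard error 0.10, adjusted p = 0.999 in edgeR's test). Of 14 genes that control proteasome transcription, 4 were above and 10 below 0 (median -0.0409). Foxo4, a transcription factor, was at 10.7, 10.2 and 10.8 CPM in TCR alone and at 8.94, 7.78 and 8.71 CPM in TCR+DMGV (log2 fold change -0.31, standard error 0.12, adjusted p = 0.999 in edgeR's test). Each was the only gene of its list with an unadjusted p under 0.05 in edgeR's test, against 3.19% of all genes. No gene of the other lists had such a p. The groups of both did not overlap, as for 3 of the 21 partner genes and 2 of the 14 control genes, against 8.86% of all genes.

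Nfe2l1, the factor named above, was chosen for its role after its values were seen. It was at 44.5, 140.0 and 47.3 CPM in TCR alone and at 42.9, 37.6 and 39.3 CPM in TCR+DMGV, with TCR alone replicate 2 about 3 times the others (log2 fold change -0.95, standard error 0.43, adjusted p = 0.999 in edgeR's test). The proteasome genes of that sample had a median deviation of 0.00337. Any part of Nfe2l1 in their levels was not tested.

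Of 11 genes of interferon control, 6 were above and 5 below 0, with a median of 0.0175 and Socs1 at the smallest p (0.305, adjusted p = 0.999 in edgeR's test). Ifng, the gene of interferon-γ, was at 589 ± 102 CPM in TCR alone and at 639 ± 51.4 CPM in TCR+DMGV (SD, n = 3 each). Of 15 genes of class I peptide loading, 6 were above and 9 below 0 (median -0.0583). B2m, the light chain of class I molecules, was at 1558, 1266 and 1614 CPM in TCR alone and at 1797, 1598 and 1906 CPM in TCR+DMGV, where TCR+DMGV replicate 2 lay below TCR alone replicate 3 (log2 fold change 0.26, standard error 0.11, adjusted p = 0.999 in edgeR's test). Of 6 ubiquitin genes, 4 were above and 2 below 0 (median 0.0595).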

How the data were processed

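RNA of 6 samples, 3 per group, was measured by mRNA sequencing. The authors used SOAPnuke 1.5.2 to filter reads, HISAT2 2.0.4 to map and StringTie 1.2.3 to estimate expression, and they deposited whole-number counts and FPKM values per gene and per transcript. The submitters' processing notes name mm9 as the build, but 99.7% of the gene identifiers matched GENCODE M21 (GRCm38) without version, and symbols and positions come from it. Gene counts were tested with edgeR 4.0.16 in R 4.3.3 (TMM, default filter for low counts, quasi-likelihood test, Benjamini-Hochberg adjustment over 14786 genes, threshold 0.05, two-sided). FPKM served for levels between genes and CPM for levels between samples. Ranks of abundance are those of the deposited FPKM, which did not follow counts and length alone. On simulated counts, the test recovered 48% of genes changed by 1 and 83% of those changed by 2 on the log2 scale among 14445 genes. Smaller changes were not simulated. No 2 samples agreed within sampling noise (median chi-square per gene 3.88 to 9.02, 0.455 expected). Alternatives were DESeq2 1.42.0, other scalings and filters, summed transcript counts, limma 3.58.1 on log2(FPKM + 1) and log2(FPKM + 0.1), the replicate number as a block, samples left out, and a GC correction (loess, span 0.3) added after the data were seen. Members and lists were chosen with earlier results of these data known. Named were all catalytic subunits, activators and the inhibitor, in every other role the gene of smallest p and those of highest and lowest FPKM, and in each list the genes with p under 0.05 or else the smallest p. Further names were added once values were known. A gene that the rule names is not reported here. The p-values set the difference between the groups against the spread between samples. Tables were read with Python 3.11.15, pandas 2.3.3 and scipy 1.17.1, and drawn with matplotlib 3.10.9.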

Additional observations from a re-analysis of the deposited data

How the results depend on the processing

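No member passed an adjusted p of 0.05 under any alternative run, and none passed 0.1 in edgeR with all 6 samples. The median log2 fold change of the members stayed above 0 throughout (0.0188 to 0.14 with one sample left out). Groups did not overlap for 2 members with all samples (4.08%, against 8.86% of all genes). With one sample left out, where fewer samples overlap less often by design, they did not for 4 to 18 members (8.16% to 36.7%, against 15.9% to 28.4% of all genes), and without the 2 samples that stand apart for 21 (42.9%, against 38.7%). The count was 4 with the GC correction (8.16%, against 10.3%) and 1 with library size alone (2.04%, against 7.78%). With limma on log2(FPKM + 1) or log2(FPKM + 0.1) it was also 1 (2.04%, against 7.79%). With the replicate block it was 2 (4.08%, against 8.86%) and the median 0.0733. The replicate numbers did not pair the samples (correlations of same-numbered samples -0.154, 0.121 and -0.148), and the block changed no call. The immune minus constitutive difference ran from -0.128 to -0.0508 over all alternatives (-0.0708 without the 2 samples, added after the data were seen) and from -0.122 to -0.0548 with one sample left out. Leading transcripts did not overlap for 3 members by FPKM (7.32%, against 9.05% of all genes of this kind), and for 6 to 11 with one sample left out (14.6% to 26.8%, against 17.7% to 19.9%). Of 480 fold changes of 30 named members under alternatives, 461 kept their direction and 19 reversed. With one sample left out, those that reversed ran from -0.0327 to 0.0635 (Psma3), -0.0562 to 0.113 (Psmb1), -0.104 to 0.123 (Psmb10), -0.0386 to 0.106 (Psmb7), -0.0463 to 0.19 (Psmb8), -8.7e-05 to 0.281 (Psmd10), -0.00572 to 0.153 (Psmd11), -0.0114 to 0.0767 (Psmd2), -0.0428 to 0.0539 (Psmd7), -0.0283 to 0.113 (Psmd9), -0.291 to 0.336 (Psme2b), -0.361 to 0.0884 (Psme4) and -0.0391 to 0.124 (Psmg2). TCR alone replicate 1 was the sample left out in 10 of these reversals. Without the 2 samples that stand apart, Psmb10 was at 0.128 and Psme2b at -0.238. The cause was not tested. Depth limited the comparison for Psma8, with 0 to 24 counts a sample.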

Other observations

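Of the 3 retained-intron transcripts that held over 5% of an immune subunit's counts, Psmb10-206 held 8.24%, 9.86% and 7.02% in TCR alone and 8.68%, 4.5% and 4.54% in TCR+DMGV. Psmb9-201 held 9.08%, 8.85% and 7.91% in TCR alone and 8.57%, 6.45% and 9.41% in TCR+DMGV. Psmb8-202 held 5.94%, 3.69% and 5.64% in TCR alone and 5.62%, 5.37% and 5.81% in TCR+DMGV. The groups overlapped for each. Psmd11-204, a retained-intron transcript of a lid gene, held 41.2% of the gene's transcript counts in TCR alone replicate 3 and at most 0.612% in the other 5 samples.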
